A study of Mus musculus with 6 samples.

Results

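This account concerns 8 lymphocyte lineage transcription factors, Gata3, Tbx21, Bcl6, Foxp3, Ikzf2, Runx1, Runx3 and Tcf7, which are 8 of the 770 genes counted on the mouse PanCancer Immune Profiling panel. They were picked by symbol as factors of helper, regulatory and cytotoxic lymphocyte fates. The 8 factors were measured in tumours of 3 4'-BR samples and 3 Control samples. All 6 came from engineered melanoma mice that carry the activated kinase allele BrafV600E, and in which 4-hydroxy-tamoxifen painted on the back at 10 weeks of age starts the tumours. The 4'-BR mice received 4'-bromo-resveratrol, a brominated relative of the plant compound resveratrol reported to block the NAD-dependent deacetylases Sirt1 and Sirt3, into the peritoneum at 30 mg/kg on 3 days a week for 5 weeks. The sources used here do not give the treatment of the Control mice, the promoter that drives the recombinase, the strain or the sex. The comparison asks how the compound alters immune gene expression in the tumours.

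A naive T cell takes on a helper, regulatory or cytotoxic identity when a lineage-defining transcription factor is switched on and holds the others down. Gata3 directs type 2 helper cells and type 2 innate lymphoid cells, Tbx21 (T-bet) type 1 helper cells, natural killer cells and cytotoxic cells, Bcl6 follicular helper cells and germinal centre B cells, and Foxp3 regulatory T cells, in many of which Ikzf2 (Helios) is found. Runx1 is a Runt-domain factor of early T cell development, its relative Runx3 sets the CD8 cytotoxic fate, and Tcf7 (TCF-1) marks naive, memory and stem-like T cells. Several of them also work outside lymphocytes in skin. Gata3 and Runx1 act in epidermis and hair follicles, and Runx1 and Bcl6 are made in myeloid cells. In RNA from a whole tumour, fewer cells of a type and less RNA per cell cannot be told apart, nor can the cell type a transcript came from.

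No factor passed the test. Of the 6 factors with enough counts to be tested, 0 had an edgeR adjusted p under 0.05, where 6.93% of the 548 tested genes did, 1.28% higher and 5.66% lower in 4'-BR tumours. Of these 6, 2 had an unadjusted p under 0.05, Gata3 and Ikzf2, both with higher means in 4'-BR tumours, against 23.4% of all tested genes in either direction and 7.66% higher. The count of 0 also held with each sample left out in turn. In such fits 0 of all tested genes passed without 4'-BR sample 1 or 2, and 1 without 4'-BR sample 3 or Control sample 1. A count of 0 says little there. DESeq2 called 1 of the 6, Gata3. The 6 factors had a median log2 fold change of 0.39, and 5 were positive, beside a median of −0.038 over all tested genes. Gata3 was the 1 factor of the 6 whose groups did not overlap, a state found in 12.6% of tested genes in the higher direction and 30.5% in either direction. Foxp3 and Tbx21 lay under the count minimum, a mean raw count of 20, and are read from a fit of all 770 genes.

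Depth differed between the groups. The 4'-BR samples gave 118221 to 254862 counts over the panel and the Control samples 322485 to 472402. The levels below are raw counts divided by a sample factor from the geometric mean of the 20 housekeeping probes, given for samples 1, 2 and 3 of each group in turn. On that scale the 8 negative probes, which match no mouse transcript, averaged 3.46 to 7.50 in 4'-BR samples and 4.11 to 4.95 in Control samples. General T cell genes were sparse, with Cd3e at 16.2, 35.8 and 41.3 scaled counts in 4'-BR samples and at 14.8, 18.4 and 19.0 in Control samples, and Cd8a, which marks cytotoxic T cells, at 4.78, 9.33 and 7.50 in 4'-BR samples and at 3.30, 6.54 and 6.58 in Control samples, close to the negative probes. Among 10 B cell markers, 6 averaged no more than the negative probes, Ms4a1, Cd79a and Cd79b among them.

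**Figure D1:**
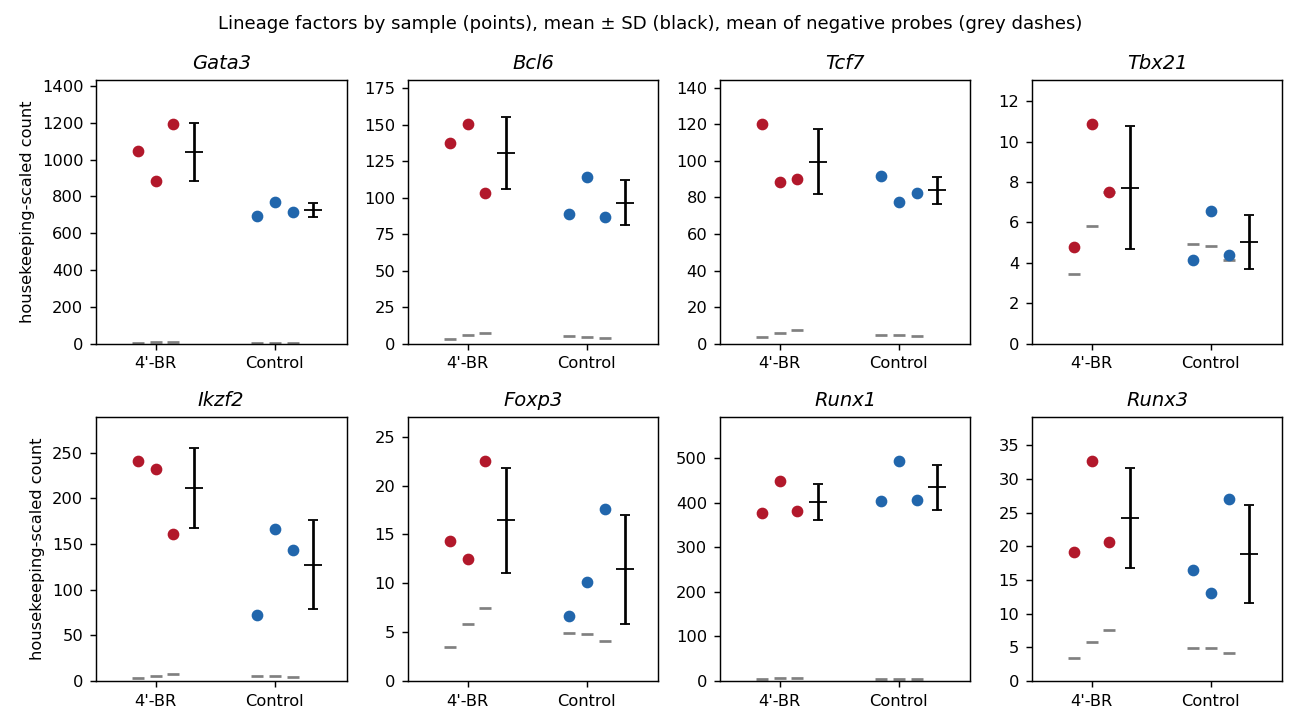
Housekeeping-scaled counts (vertical axis, from 0) of the 8 factors in the 3 4'-BR samples (left, red) and 3 Control samples (right, blue), with the group mean ± SD in black and the sample's mean over the negative probes as grey dashes. The 3 Gata3 points of 4'-BR lie above all 3 of Control, the other 7 factors overlap, and Tbx21 lies among the negative probes.

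Gata3, the type 2 helper factor, had 1046, 882 and 1195 scaled counts in 4'-BR samples and 693, 770 and 715 in Control samples. Every 4'-BR sample was above every Control sample, and the Control samples were close together. Its means were 1041 ± 157 in 4'-BR tumours and 726 ± 39.2 in Control tumours (SD, n = 3 each), a log2 fold change of 0.52 (SE 0.16, 95% interval 0.16 to 0.88, 1.43-fold) with an edgeR adjusted p of 0.0779, above the threshold. By p it ranked 68 of 548. The call depended on the method, since Gata3 passed with DESeq2 (log2 fold change 0.52, adjusted p = 0.0429), which called 12.6% of tested genes, and with scaling to the total count (0.69, adjusted p = 0.0464), which called 10.9% and moved the median of all genes to 0.12, and stood at −0.093 when scaled to the positive control probes (adjusted p = 0.773), which moved the median of all genes to −0.67. Its raw counts of 567 to 1294 were at least 140 times the mean negative probe of the same sample.

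Tbx21, the type 1 factor, could hardly be told from background. It had raw counts of 5, 7 and 4 in 4'-BR samples and of 5, 11 and 6 in Control samples. Counting error alone allowed 1.62 to 11.7, 2.81 to 14.4 and 1.09 to 10.2 in the 4'-BR samples (exact Poisson 95% intervals). It exceeded the highest negative probe in 1 of 6 samples, 4'-BR sample 2, and its scaled levels were 4.78, 10.9 and 7.50 in 4'-BR samples and 4.12, 6.54 and 4.39 in Control samples. The fitted log2 fold change of 0.51 (SE 0.46, edgeR adjusted p = 0.572 over 770 genes, of which 5.58% passed) is loosely set, and its interval ran from −0.50 to 1.53. It was 1.39 with background subtracted, 0.85 without 4'-BR sample 1 and 0.17 without 4'-BR sample 2. Eomes, the T-box factor related to Tbx21, was as sparse, at 5.73, 3.11 and 3.75 in 4'-BR samples and at 4.12, 4.16 and 1.46 in Control samples.

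Bcl6, a repressor that directs follicular helper T cells and germinal centre B cells, had 138, 151 and 103 scaled counts in 4'-BR samples and 89.1, 114 and 87.1 in Control samples. The groups overlapped only through 4'-BR sample 3, which lay below Control sample 2. Means were 131 ± 24.6 in 4'-BR tumours and 96.8 ± 15.1 in Control tumours, with a log2 fold change of 0.43 (SE 0.22, 95% interval −0.046 to 0.92, edgeR adjusted p = 0.258).

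Foxp3, the factor that defines regulatory T cells, had 14.3, 12.4 and 22.5 scaled counts in 4'-BR samples and 6.60, 10.1 and 17.6 in Control samples, from raw counts of 8 to 24. It exceeded the highest negative probe in 5 of 6 samples, the exception being Control sample 1. The groups overlapped, the log2 fold change was 0.48 (SE 0.43, edgeR adjusted p = 0.541 over 770 genes), and the 95% interval from −0.45 to 1.41 allowed a change either way. It was 0.90 without Control sample 3, 0.23 without Control sample 1 and also 0.23 without 4'-BR sample 3.

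Ikzf2, an Ikaros family zinc finger factor of regulatory T cells, had the highest fitted fold change of the 8. It had 241, 232 and 161 scaled counts in 4'-BR samples and 72.6, 167 and 143 in Control samples. Control sample 1 was the lowest of the 6, and 4'-BR sample 3 lay just below Control sample 2. Means were 211 ± 43.5 in 4'-BR tumours and 127 ± 49.0 in Control tumours, a log2 fold change of 0.73 (SE 0.30, 95% interval 0.068 to 1.39, edgeR adjusted p = 0.171). Without Control sample 1 the log2 fold change was 0.45, and without Control sample 2 it was 0.97. In 4'-BR sample 3, the scaled Foxp3 level was the highest of the 6 samples and the Ikzf2 level was the lowest of its group. That Foxp3 level rests on a raw count of 12 (exact Poisson 95% interval 6.20 to 21.0) in the sample of lowest depth. The highest Foxp3 raw count, 24, was in Control sample 3.

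Runx1 and Runx3 are read here by 1 probe each. Each gene starts from a distal and a proximal promoter, and the letters ACCACA, which Runt-domain factors recognise, stand as a tandem pair beside each distal start. The stretches around it are shown because an identical run of 18 bases, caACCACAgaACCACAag, is present in both genes (RefSeq, GRCm38.p6, written 5′ to 3′ on the gene's strand, with ACCACA in capitals).
Runx1 (chr16:92826025-92826054, minus strand): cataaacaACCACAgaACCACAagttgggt
Runx3 (chr4:135120503-135120532, plus strand): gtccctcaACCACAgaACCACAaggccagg
The Runx1 stretch lies just after the annotated start and the Runx3 stretch before it. ACCACA or its reverse complement TGTGGT was found in 16.8% of 32851 windows of 300 bases around gene starts, and a tandem pair on 1 strand with at most 10 bases between in 0.116% of them. Windows were listed for 7 of the 8 factors, 12 windows in all, of which these 2 held the tandem pair. The letters AGATAA, read by GATA factors, were found on either strand in 1 of the 12, a Foxp3 window, against 11.2% of all windows. No window of the 12 held AGGTGTGA, the letters of T-box factors (1.28% of all windows), and none held CTTTGAA, those of the TCF factors (5.14%), on either strand.

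Runx1 was the 1 factor with a negative fold change. It had 377, 449 and 381 scaled counts in 4'-BR samples and 403, 494 and 407 in Control samples, with sample 2 the highest of each group and the groups overlapping. Means were 403 ± 40.6 in 4'-BR tumours and 435 ± 51.2 in Control tumours, with a log2 fold change of −0.11 (SE 0.16, 95% interval −0.48 to 0.25, edgeR adjusted p = 0.683). Runx1 turned to 0.043 with total count scaling and passed as lower with positive control scaling, at −0.76 (edgeR adjusted p = 0.0232), a scaling under which 44.5% of tested genes passed and the median of all genes was −0.67.

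Runx3 had raw counts of 20, 21 and 11 in 4'-BR samples and 20, 22 and 37 in Control samples, above the highest negative probe in all 6. After scaling these were 19.1, 32.7 and 20.6 in 4'-BR samples and 16.5, 13.1 and 27.1 in Control samples, which overlapped widely. Its log2 fold change was 0.34 (SE 0.37, 95% interval −0.49 to 1.18, edgeR adjusted p = 0.587). It was 0.072 without 4'-BR sample 2 and 0.12 without Control sample 2, and without Control sample 3 Runx3 fell under the count minimum.

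Tcf7, the TCF-1 factor of naive and stem-like T cells, had 120.4, 88.6 and 90.0 scaled counts in 4'-BR samples and 91.5, 77.3 and 82.7 in Control samples. Only 4'-BR sample 1 lay above all Control samples. Its log2 fold change was 0.26 (SE 0.21, 95% interval −0.21 to 0.74, edgeR adjusted p = 0.472), and without 4'-BR sample 1 it was 0.093.

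**Figure D2:**
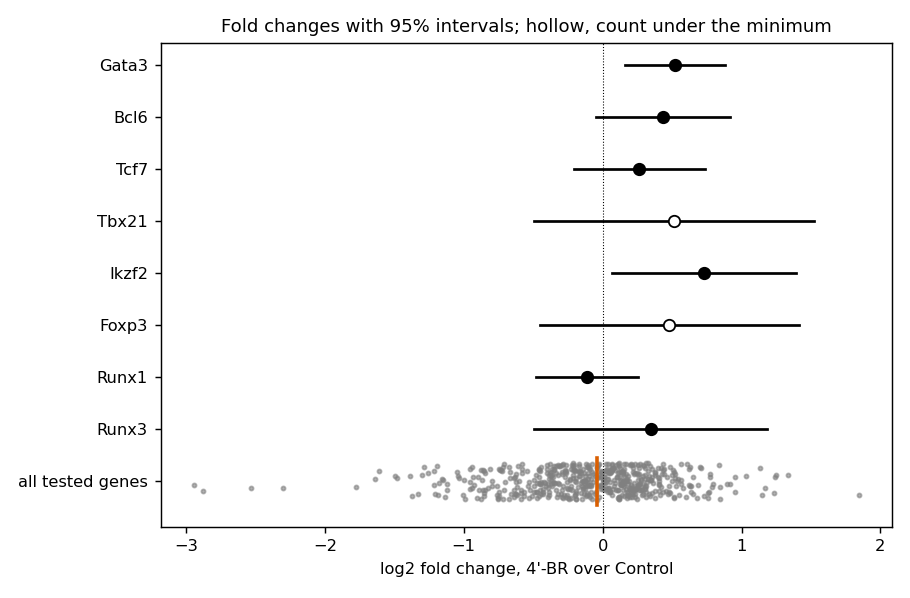
Log2 fold change of 4'-BR over Control (horizontal axis) for the 8 factors, with 95% intervals from the edgeR fit, above the 548 tested genes as grey points with their median in orange. Hollow points are Foxp3 and Tbx21, whose counts lay under the minimum. The intervals of Gata3 and Ikzf2 lie above 0 before adjustment, and all 8 points fall within the spread of the other genes.

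Ratios of 2 factors within a sample depend on the scaling only through the 1 added to each count, which matters where counts are low. The log2 ratio of Tbx21 to Gata3, the type 1 and type 2 factors, averaged −6.89 ± 0.69 in 4'-BR samples and −7.00 ± 0.22 in Control samples (SD, n = 3 each), a difference of 0.12 (exact permutation p = 0.8, two-sided). That of Ikzf2 to Foxp3 averaged 3.59 ± 0.74 in 4'-BR samples and 3.42 ± 0.50 in Control samples, a difference of 0.18 (exact permutation p = 0.8, two-sided). That of Runx3 to Runx1 averaged −4.01 ± 0.27 in 4'-BR samples and −4.53 ± 0.65 in Control samples, a difference of 0.52 (exact permutation p = 0.3, two-sided), which was 0.19 without Control sample 2 and 0.84 without Control sample 3. All 3 adjusted p-values were 0.8 over the 3 ratios, and 3 samples against 3 cannot give a p under 0.1. The groups overlapped in all 3 ratios, and those with Tbx21 or Foxp3 rest on counts near background. Gata3 also acts in epidermis and hair follicles, and the cell type behind a transcript is not known here. No ratio is therefore read as a balance of cell types. The difference for Runx3 to Runx1 was above the SD of the 4'-BR samples and below that of the Control samples. With counts thinned to the lowest total, the difference for Tbx21 to Gata3 was −0.50.

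Over all 15 pairs of the 6 tested factors, the groups did not overlap in 3, a smaller share than the 32.9% found over all 149878 pairs of tested genes. All 3 involved Runx1. The log2 ratio of Gata3 to Runx1 was 1.47, 0.97 and 1.64 in 4'-BR samples and 0.78, 0.64 and 0.81 in Control samples. The log2 ratio of Ikzf2 to Runx1 was −0.65, −0.95 and −1.23 in 4'-BR samples and −2.46, −1.56 and −1.50 in Control samples. The log2 ratio of Runx1 to Bcl6 was 1.45, 1.57 and 1.87 in 4'-BR samples and 2.17, 2.11 and 2.21 in Control samples. Gata3, Ikzf2 and Bcl6 were thus each higher relative to Runx1 in every 4'-BR sample than in any Control sample. These pairs were examined after the values were seen, so they are given as descriptions with no test.

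The factors were next set against other genes of the same sample. Cd3d, Cd3e, Cd3g and Cd247, the signalling chains of the T cell receptor, had a mean log2 level of 5.35 ± 0.26 in 4'-BR samples and 4.75 ± 0.26 in Control samples, a difference of 0.60 with no overlap. The median log2 fold change over all tested genes was −0.038, so a negative sign relative to these chains is not particular to the factors. Relative to the chains 6 of the 8 factors had a negative difference. The log2 level of Gata3 differed by −0.12 between the groups, that of Ikzf2 by 0.16, that of Bcl6 by −0.20, that of Foxp3 by −0.014 and that of Tcf7 by −0.38, all with overlap. Runx1 was the exception, lower relative to the chains in every 4'-BR sample (3.49, 3.42 and 2.96 on the log2 scale) than in any Control sample (4.16, 4.26 and 3.65). This position was shared by 38.6% of the 766 panel genes so measured. Ptprc, the CD45 antigen of all leukocytes, had scaled levels of 184, 187 and 173 in 4'-BR samples and 183, 260 and 219 in Control samples. The log2 fold change of Ptprc was −0.29, and 31.6% of the 548 tested genes had a lower one. A positive sign relative to Ptprc is thus not particular to the factors. All 8 factors had a positive difference relative to Ptprc, from 0.16 for Runx1 to 1.06 for Ikzf2, and for 4 of 8, Gata3, Ikzf2, Tbx21 and Bcl6, the groups did not overlap, against 29% of 769 panel genes in that direction. Of these 4, Tbx21 lay among the negative probes, whose scaled mean was 3.46, 5.83 and 7.50 in 4'-BR samples and 4.95, 4.83 and 4.11 in Control samples, so its ratio to Ptprc is not read as a level of the factor.

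Some epithelial markers rose in the same comparison. Of 10 tested keratinocyte and epithelial genes 3 rose, F2rl1, Ccl27a and Itgb4, and 0 fell. In all, 6 of the 10 had a positive value and 4 a negative one, the lowest at −0.58 with no overlap between the groups, with a list median of 0.43 and summed scaled levels of 7867 to 8879 in 4'-BR samples and 7398 to 7709 in Control samples. No measured marker of this list was at 0. With samples left out in turn F2rl1 lost its call in all 6 fits (adjusted p = 0.0523 to 0.137), Itgb4 in all 6 (0.0523 to 0.176), and Ccl27a in 5 of 6, remaining without Control sample 3 (0.72 on the log2 scale without 4'-BR sample 1 and 0.999 without Control sample 3). Relative to the mean of these 10 genes the log2 level of Gata3 differed by 0.21 between the groups, with overlap, and that of Runx1 by −0.41, with none, as in 28.3% of 760 panel genes in the lower direction. Their part in the result for Gata3 was not tested. Macrophage and monocyte markers went the other way. Of 13 tested, 5 fell and 0 rose (median −0.73), with summed scaled levels of 4404 to 6447 in 4'-BR samples and 9402 to 11151 in Control samples, and Marco at no more than the negative probes. Their part in the values of Runx1 and Bcl6, which myeloid cells also make, was not tested. Of the other cell type markers, 5 of 11 of fibroblasts and 1 of 3 of neutrophils fell, and 0 passed among 8 of endothelium, 5 of dendritic cells and 4 of melanocytes. In edgeR no gene of the panel passed without 4'-BR sample 1 or without 4'-BR sample 2, so all of these calls were lost there.

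**Figure D3:**
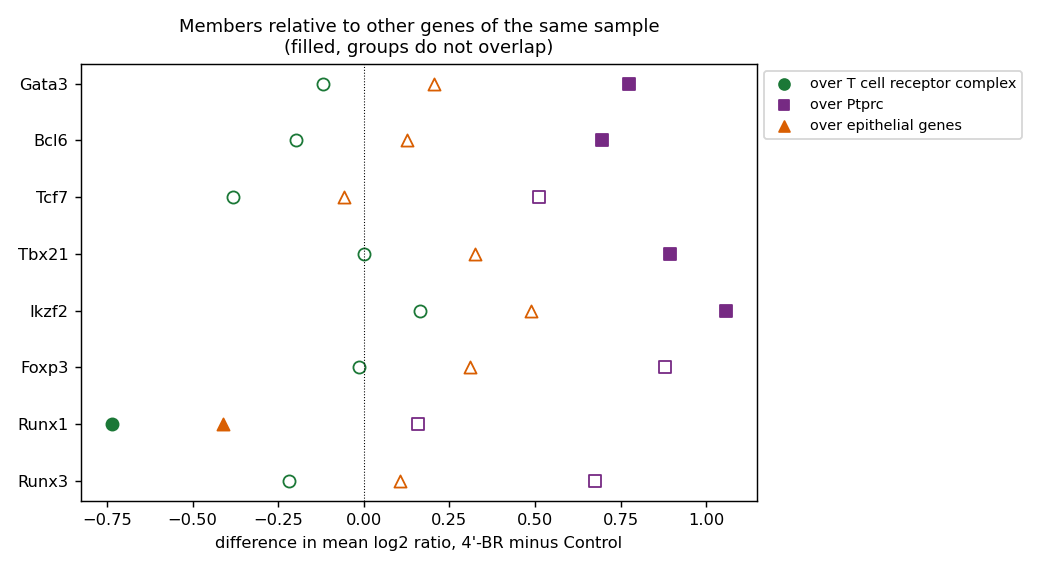
Difference between 4'-BR and Control in the mean log2 ratio of each factor to other genes of the same sample (horizontal axis), for the 4 T cell receptor chains (green circles), Ptprc (purple squares) and 10 epithelial genes (orange triangles). Filled symbols mark groups that do not overlap. All 8 purple squares lie above 0, and Runx1 has the lowest value against each of the 3.

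Genes that act with these factors gave 1 call. In the type 1 program, which T-bet drives, 1 of 6 tested genes rose and 0 fell, with a median log2 fold change of 0.60. Of the 6, 5 were positive and 1 was negative, at −1.21 with overlap. The riser was Il12rb2, the interleukin-12 receptor chain, at 61.2, 45.1 and 56.3 scaled counts in 4'-BR samples and 18.1, 25.0 and 25.6 in Control samples (log2 fold change 1.24, edgeR adjusted p = 0.0387). With samples left out in turn Il12rb2 stayed between 1.10 and 1.35, and its call held without Control sample 3 (edgeR adjusted p = 0.0491) and was lost without each of the others (0.0705 to 0.145). Il18r1, the interleukin-18 receptor chain of the same program, was at 89.8, 80.9 and 78.8 in 4'-BR samples and at 27.2, 48.2 and 56.3 in Control samples, with no overlap, and did not pass (0.92, edgeR adjusted p = 0.0799). Ifng, the cytokine that type 1 cells secrete, was near the negative probes, at 2.87, 7.78 and 7.50 in 4'-BR samples and 1.65, 4.16 and 2.19 in Control samples. In the cytotoxic program, where Runx3 acts, 0 of 4 tested genes passed (median 0.63), with Ctsw, a protease of cytotoxic cells, at 0.65 and the activating receptor gene Klrk1 at 0.68. Gzmb, which encodes granzyme B, was at 7.65, 7.78 and 13.1 in 4'-BR samples and at 4.12, 2.97 and 5.85 in Control samples, again near background.

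In the type 2 program, which Gata3 directs, 0 of 7 tested genes passed, and the median was 0.065. Its extremes ran in opposite directions. Il1rl1, which encodes the interleukin-33 receptor ST2, was at 47.8, 34.2 and 39.4 scaled counts in 4'-BR samples and at 53.6, 177 and 85.6 in Control samples. Its groups did not overlap, Control sample 2 was far above the rest, and the log2 fold change was −1.37 (SE 0.42, edgeR adjusted p = 0.072) or, without Control sample 2, −0.77. Ccr4, a chemokine receptor of type 2 and regulatory T cells, was at 0.56 (edgeR adjusted p = 0.30). Il5 and Il9, type 2 cytokine genes, averaged no more than the negative probes. ST2 is also made by mast cells, of whose 3 tested markers 1 fell, the chymase gene Cma1 (−0.83, edgeR adjusted p = 0.0387, and 0.0559 to 0.133 with samples left out in turn). The receptor gene Kit had a positive value that did not pass (1.04, SE 0.49, edgeR adjusted p = 0.244), with overlap. Cma1 averaged 256 scaled counts in 4'-BR samples and 456 in Control samples and made up most of the summed levels over the 5 measured markers of 313 to 400 in 4'-BR samples and 501 to 598 in Control samples. Their part in the Il1rl1 value was not tested.

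In the interleukin-17 program 0 of 6 tested genes passed (median 0.37). The cytokines of that program, Il17a, Il17f, Il22 and Il21, averaged no more than the negative probes. Among 8 tested regulatory T cell genes 0 passed (median 0.096), with the integrin gene Itgae at 0.54 and the ectonucleotidase gene Entpd1 at −0.47. Of the follicular helper list, 2 genes had enough counts and 0 passed, Icos at 0.49 and Cxcl13 at −0.62 (SE 1.00), and Cxcr5 and Il21 averaged no more than the negative probes. Among 6 tested genes of naive and memory T cells, Tcf7's setting, 0 passed (median 0.29), with the interleukin-6 receptor gene Il6ra at 0.65 and the interleukin-7 receptor gene Il7r at 0.41. Of these 6 genes 4 were positive and 2 negative, the lowest at −0.35. Among the 7 tested T cell receptor complex and general T cell genes 0 passed (median 0.58), and 5 were positive and 2 negative. The kinase gene Zap70 was at 0.89, Cd3d at 0.58 and Cd4 at −0.15. The list's summed level was 276 to 396 in 4'-BR samples and 190 to 271 in Control samples.

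Of 21 other tested transcription factors of lymphoid cells 0 passed, and 16 were positive, with a median of 0.17. Egr3, an early growth response factor induced by antigen receptor signals, was closest, at 239, 233 and 287 scaled counts in 4'-BR samples and 166, 165 and 165 in Control samples (0.61, SE 0.16, edgeR adjusted p = 0.0511). The positive values of most lineage factors were thus shared by most other lymphoid factors of the panel.

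**Figure D4:**
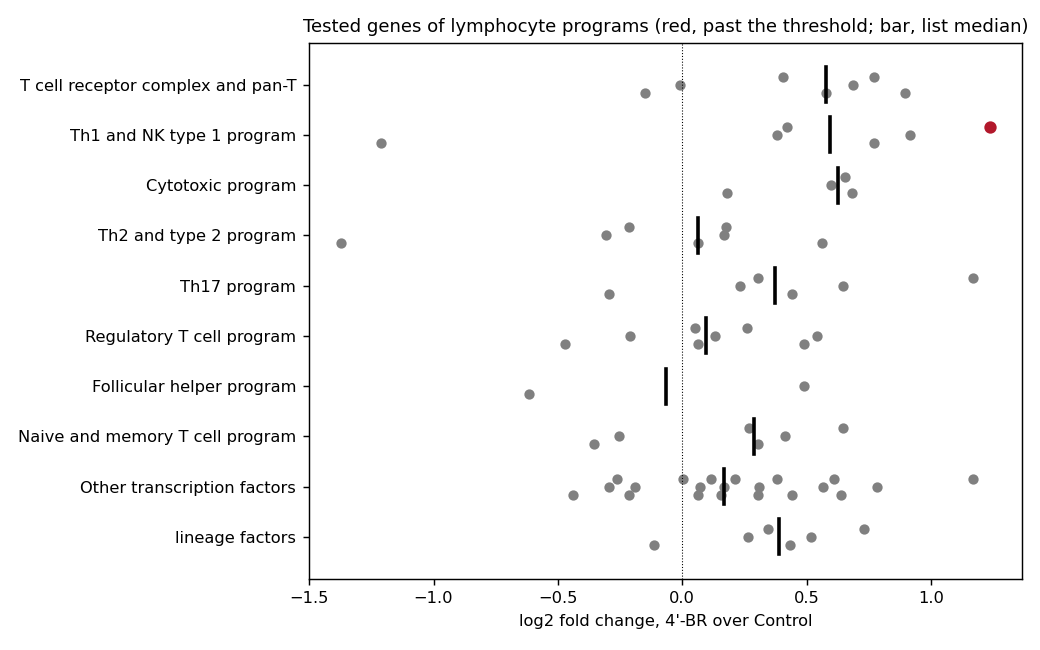
Log2 fold change of 4'-BR over Control (horizontal axis) for each tested gene of the lymphocyte programs, with the list median as a black bar and the gene past the threshold in red. Il12rb2 is the 1 red point, and the 6 tested lineage factors run from −0.11 to 0.73.

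By profile over the 6 samples, measured as the root mean square difference of centred log2 levels, Gata3 lay closest to Egr3 (0.092) and Mif (0.101), the gene of macrophage migration inhibitory factor. Ikzf2 lay closest to Nfatc2 (0.140), a calcium-responsive factor of activated T cells, and Il6ra (0.169). The closest genes to Runx1 were Psmd7 (0.050), a proteasome subunit gene, and Itch (0.057), a ubiquitin ligase gene. Bcl6 was nearest to Nlrc5 (0.092) and Mapk14 (0.110), Tcf7 to Cd276 (0.082) and Cd247 (0.102), and Runx3 to Usp18 (0.227) and Tirap (0.237). These distances are descriptions over 6 samples and were largest for Runx3.

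The fold changes depended on the scaling. With 5 of the 6 scalings tried, the housekeeping one included, the fit gave Gata3 a log2 fold change between 0.51 and 0.69, and Ikzf2 one between 0.73 and 0.88. Scaling to the positive control probes, which carry synthetic RNA and follow the assay but not the amount of tumour RNA, took them to −0.093 and 0.071. A scaling moves all genes alike, and under this one the median over all tested genes was −0.67, against −0.038 with housekeeping scaling. The 6 tested factors had a median of −0.26 under it, still above that of all genes. The positive probes had geometric means of 384 to 672 in 4'-BR samples and 651 to 757 in Control samples, and the housekeeping probes 221 to 435 in 4'-BR samples and 504 to 698 in Control samples.

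**Figure D5:**
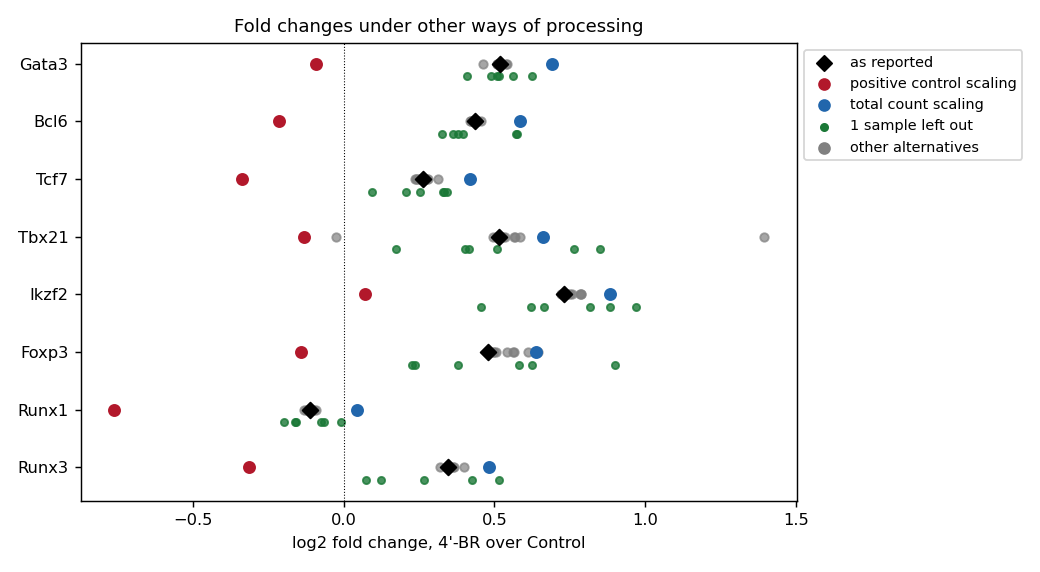
Log2 fold change of 4'-BR over Control (horizontal axis) of each factor as reported (black diamond), under positive control scaling (red), total count scaling (blue), with 1 sample left out (green) and under the other alternatives (grey). Positive control scaling, which moves the median of all tested genes to −0.67, gives the lowest value for every factor.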

How the data were processed

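RNA from 6 mouse tumours was counted on the nCounter platform, which counts barcoded probe pairs without amplification. The deposited raw table holds a count per probe, per the file headers, for 750 endogenous, 20 housekeeping, 6 positive and 8 negative probes. The authors' deposited series table gives each gene a normalized score, of which every value lay within 1 of the raw count times a factor set by the sample's housekeeping probes. The sources used here name no software for either table. Groups and replicate numbers came from the titles. The labels do not say that each sample is a separate mouse, so the spread behind each p-value may be technical.

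Raw counts were fitted with edgeR 4.0.16 in R 4.3.3 (glmQLFit and glmQLFTest, 4'-BR over Control) with housekeeping scaling, on 548 genes whose raw counts averaged 20 or more, and with Benjamini-Hochberg adjustment over all of them at a threshold of 0.05. Standard errors were derived from the F statistic. Foxp3 and Tbx21 were read from the same fit on all 770 genes. The fit was tested on simulated data. Ratios used log2(count + 1) and exact permutation over samples. Alternatives were other scalings, count minimums of 0, 50 or one set by the negative probes, background subtraction, thinned counts, DESeq2 1.42.0, limma 3.58.1, a replicate block and leaving out samples. All 8 probe accessions matched RefSeq genes of the same symbol. The factors and lists were chosen with earlier results of these data known. Named genes were the 8 factors, the 2 genes of lowest p and those past the threshold in each list, the 2 nearest profiles of each tested factor and a set of cell-presence genes. Some genes and other items are not reported here, and not all that this rule takes are printed, and cell type lists are given mostly by counts.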

Additional observations from a re-analysis of the deposited data

How the results depend on the processing

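The 38 calls over all tested genes became 60 with total count scaling, 244 with positive control scaling (1 higher, 243 lower), 69 with DESeq2, and 9 with limma on scaled counts or on the authors' table. The split moved from 7 higher and 31 lower to 30 and 30 with total counts and 21 and 48 with DESeq2. Leaving out samples gave 0 to 36 calls: 0 in edgeR without 4'-BR sample 1 (107 genes at an unadjusted p under 0.05) or 2 (117), 1 without 4'-BR sample 3 or Control sample 1, and 7 without Control sample 2. Of the 6 tested factors, 1 was called with total count scaling (Gata3, 0.69), 1 with DESeq2 (Gata3, 0.52) and 1 with positive control scaling (Runx1, −0.76), and 0 under every other alternative run. With positive control scaling, which lowered all genes together (median −0.67, against −0.038), Gata3 turned to −0.093, Bcl6 to −0.22, Tcf7 to −0.34, Runx3 to −0.31, Foxp3 to −0.14 and Tbx21 to −0.13. Runx1 turned to 0.043 with total count scaling and Tbx21 to −0.027 with thinned counts. The log2 ratio difference of Tbx21 to Gata3 was −0.50 with thinned counts, 0.78 with background subtracted and between −0.25 and 0.43 with samples left out. That of Ikzf2 to Foxp3 was −0.18 with background subtracted and between −0.053 and 0.60 with samples left out, and that of Runx3 to Runx1 between 0.19 and 0.84. Of the 8 factors, 5 to 7 were lower relative to the T cell receptor chains, against 6 as reported. The causes were not tested. Same-numbered samples did not deviate together (correlations −0.078, 0.075 and 0.21), so the numbers are not taken as pairs. A replicate block gave 30 calls, none of them a factor, with Gata3 at 0.51 and Ikzf2 at 0.79. Depth limits Tbx21 and Foxp3 most, and a mean of 50 counts removed Runx3 from the test.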
